A study of Mus musculus with 4 samples.

Results

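Apoe and 8 other genes of lipid transport were followed in cortical nuclei of conditional Gclc-KO mice, and they make up 9 of the genes counted, 32285 in all. The members were Apoe, Clu, Lpl, Abca1, Abcg1, Lrp1, Vldlr, Plin2 and Fabp5. They were picked by gene symbol, and Apoe was picked for its higher level at 6 months in microglia. The difference between the ages in microglia is therefore given as a description for every member, and the tests concern other cell classes and the subsets of microglia.

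Nuclei came from 4 mice, and each mouse gave 1 library. Mice aged 3 months gave the libraries 3M-1 and 3M-2, and mice aged 6 months gave the pair 6M-1 and 6M-2. All were Gclc-KO, made by crossing a floxed Gclc allele with a CaMKII-Cre line, and no treatment was given. CaMKII-Cre acts in forebrain excitatory neurons. Among the classes ranked below, every member had its highest mean level in glia, where this Cre is not known to act. No wild-type library was used, so age and the progress of the knockout cannot be told apart. Batch numbers 1 and 2 match the replicate numbers in the sample titles and pair the libraries of the same number. What libraries of the same number shared was not stated. Runs of 4 values list the younger pair before the older pair, with batch 1 first in each.

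The deposited files held 30784 barcodes, and 30515 nuclei with 59262228 to 65894316 UMIs per library were kept. A UMI, or unique molecular identifier, counts as 1 RNA molecule captured at its 3′ end, and CPM is a counts-per-million level, the UMIs of a gene relative to all UMIs of the class in that library. Any pair of libraries shared 12 to 19 barcodes. Gclc, the targeted gene, was at 44.96, 35.1, 32.9 and 36.4 CPM in excitatory neuron-like nuclei and at 46.6, 41.3, 36.1 and 45.1 CPM in inhibitory neuron-like nuclei. Reads at the 3′ end can lie outside the deleted part, so these values do not check the deletion. Nuclei of cell classes were found by clustering without the lipid genes and named from marker lists, and 5 clusters that did not meet the naming rule stayed unnamed. All 20 markers of the microglial list were detected in the microglia-like nuclei, where they summed to 17949 to 22055 CPM. Astrocyte-like nuclei were few, at 54, 97, 47 and 55 per library, which limits the precision of every value in that class.

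Apolipoprotein E and clusterin are secreted proteins of lipoprotein particles, which carry cholesterol and other lipids between brain cells, with astrocytes as the best known source of the former. ABCA1 and ABCG1 load these particles with cellular lipid, lipoprotein lipase frees fatty acids from them, and LRP1 and the VLDL receptor take them up. Perilipin 2 coats the lipid droplets in which cells store surplus lipid, and FABP5 binds fatty acids in the cytoplasm. Liver X receptors, which sense oxidised cholesterol, are known to raise transcription of Abca1, Abcg1, Apoe and Lpl.

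Promoters of Apoe and Abca1 are shown because, of the members, Abca1 had the levels most like those of Apoe across the classes. Each sequence is the 250 bases before the start site from RefSeq (GRCm38.p6), written 5′ to 3′ on the minus strand. Apoe lies at chr7:19699189-19699438 and Abca1 at chr4:53159896-53160145. Capitals mark GGTCA, a core element known from nuclear receptor sites, from −27 to −23 in Apoe, and in Abca1 the match from −67 to −53, read on the opposite strand, to GGTTA and GGTCA with any 5 bases between them, a spaced repeat that holds the first motif.
Apoe: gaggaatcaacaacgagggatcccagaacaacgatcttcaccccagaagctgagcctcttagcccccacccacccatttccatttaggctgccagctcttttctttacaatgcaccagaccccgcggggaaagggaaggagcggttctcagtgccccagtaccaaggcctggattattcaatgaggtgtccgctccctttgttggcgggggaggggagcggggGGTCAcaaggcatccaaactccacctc
Abca1: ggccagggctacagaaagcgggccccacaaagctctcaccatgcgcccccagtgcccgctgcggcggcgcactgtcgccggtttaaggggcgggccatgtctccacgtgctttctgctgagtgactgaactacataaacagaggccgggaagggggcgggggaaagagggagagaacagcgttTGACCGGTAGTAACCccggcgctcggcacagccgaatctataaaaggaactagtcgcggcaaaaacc

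Both strands of 32851 promoters of 250 bases were searched for these letters. The spaced repeat was found in 15 of them (0.0457%), and 1 of these was that of Abca1. The fixed letters of this pattern are those of the Abca1 stretch itself, so nothing is read from its match there or from its rarity. GGTCA alone was found in 35.2% of promoters, among them those of Abca1, Apoe and Plin2. The liver X receptor repeat in its exact form, AGGTCA given again after any 4 bases, was found in 5 promoters (0.0152%), none of them of a member. The spaced repeat marked in Abca1 is a variant of this direct repeat, so Abca1 lacks only the exact form in this window. CACGTG was found in 6.02%, among them that of Abca1. A match describes letters in this window and does not show binding, and 5 of the 9 members had a promoter entry.

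Apoe, the main lipid carrier of the brain, was at 185, 388, 1587 and 1206 CPM in microglia-like nuclei. These levels rest on 190, 220, 2016 and 1409 Apoe UMIs in 459, 368, 696 and 563 nuclei. Both 6-month libraries were above both 3-month libraries, and 3M-1 was the lowest. The ratio of the mean levels was 4.87, or 2.29 on the log2 scale, with 3.10 between the libraries of batch 1 and 1.64 between those of batch 2. The median log2 ratio over the 11038 genes that passed the filter on low counts in microglia was 0.021. Without 3M-2 the log2 ratio was 2.91.

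The share of microglia-like nuclei with at least 1 Apoe UMI moved in the same way when each nucleus was thinned to a depth of 1000 UMIs. At 3 months the shares were 14.2% (95% Wilson interval 11.2% to 17.8%) for batch 1 and 26.6% (21.8% to 32.1%) for batch 2. At 6 months they were 57.8% (54.0% to 61.5%) for batch 1 and 53.5% (49.3% to 57.6%) for batch 2. The mean share was 35.2 percentage points higher at 6 months, which is a description, since Apoe was picked for this contrast. Wilson intervals cover counting error over nuclei only and not the spread between mice. Nuclei with 2 or more Apoe UMIs made up 2.78%, 7.91%, 33.9% and 26.7%. Unthinned shares were 27.7%, 28.8%, 71.1% and 68.4%, and 28, 90, 33 and 13 shallower nuclei were left out of the thinned ones.

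Excitatory neuron-like nuclei, which are not the usual source of Apoe, served as the comparison for free RNA in the droplets. Their thinned shares with an Apoe UMI were 3.25%, 3.02%, 4.93% and 4.70%. Without thinning they were 20.6%, 18.3%, 33.2% and 34.0%, so that the neurons at 6 months were above the unthinned microglia at 3 months. The median depths were 6983 to 10448.5 UMIs in these neurons and 1383 to 2202 UMIs in microglia, so thinning took away a larger part of the UMIs in the neurons. The part of free RNA in the microglial shares was not tested. Astrocyte markers also moved in microglia-like nuclei. The 18 genes of the astrocyte list summed to 474, 492, 695 and 670 CPM there, 5 of the 18 were higher and 2 lower in both 6-month libraries, and 1 was at 0. Most of that sum was Slc1a3, a glutamate transporter of astrocytes, at 341, 249, 497 and 468 CPM, higher at 6 months in both libraries. Slc1a2, another astrocytic glutamate transporter, was at 43.9, 104, 65.3 and 63.4 CPM, and Gja1, an astrocytic gap junction gene, at 0 to 5.29 CPM. The part of astrocytic RNA in the Apoe levels of microglia was not tested. Of the 6 macrophage markers 3 were at 0, and the list summed to 8.82 to 18.8 CPM.

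**Figure D1:**
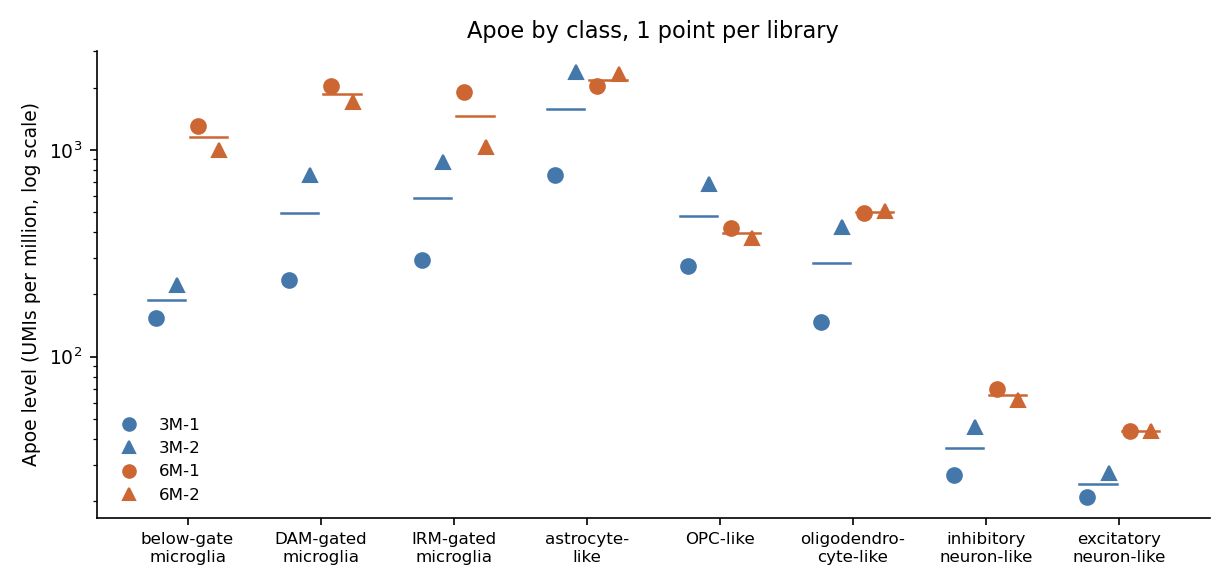
Apoe level in CPM (log scale) in 8 classes of nuclei, with 1 point per library, blue for 3 months, orange for 6 months, circles for batch 1 and triangles for batch 2; bars are means of 2 libraries. Below-gate microglia were at 153 and 223 CPM at 3 months and at 1311 and 997 CPM at 6 months, while astrocyte-like nuclei overlapped between the ages.

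**Figure D2:**
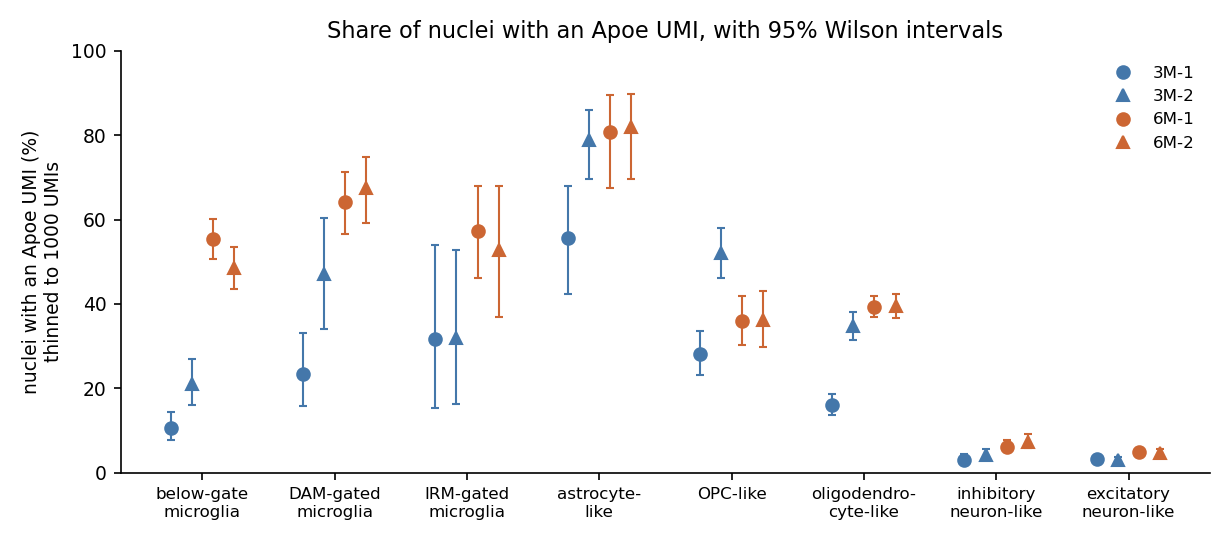
Share of nuclei with an Apoe UMI, in percent of nuclei thinned to 1000 UMIs, by class and library, with 95% Wilson intervals. In below-gate microglia the share was 10.6% and 21.0% at 3 months and 55.4% and 48.5% at 6 months, and in both neuron classes it was at or below 7.31%, against 18.3% to 37.7% there without thinning.

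Of the 9 members, 5 were higher in both 6-month libraries than in both 3-month libraries of microglia (Apoe, Lpl, Abca1, Abcg1 and Fabp5), against 21.3% of all genes. Lrp1 was the 1 member that was lower in both, against 17.5% of all genes. Nothing is read from these counts, because Apoe was picked on this contrast and the members were chosen with earlier results of these data known. Abca1 was at 380, 439, 550 and 528 CPM, Abcg1 at 74.1, 82.9, 99.2 and 83.1 CPM, and Lpl at 33.1, 44.1, 62.97 and 65.9 CPM. Lrp1, the endocytic receptor of Apoe particles, was at 353, 333, 302 and 270 CPM. Plin2 was at 44.8, 31.7, 33.8 and 42.0 CPM and Clu at 10.7, 35.3, 16.5 and 21.4 CPM, with the ages overlapping. Abcg1 differed by 0.0032 on the log2 scale within batch 2. Vldlr had 5 to 9 UMIs and Fabp5 had 8 to 24 UMIs per library, so their levels are imprecise.

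Among microglia and the 5 other classes ranked, the class with the highest level differed from member to member. Mural-like nuclei (141), striatal neuron-like nuclei (1252) and the unnamed clusters were not ranked. Striatal neuron-like nuclei numbered 415, 321, 476 and 40 per library, so the make-up of 6M-2 differed. The part of this in the differences between libraries was not tested. Apoe was highest in astrocyte-like nuclei, with 755, 2379, 2034 and 2334 CPM, then in microglia, OPC-like (oligodendrocyte precursor) and oligodendrocyte-like nuclei, whose ranges overlapped from one to the next. Both neuron classes stood apart below them, at 21.1 to 69.4 CPM. Clu was led by astrocyte-like nuclei alone, at 271, 346, 338 and 468 CPM, and its next class, OPC-like nuclei, reached 47.7 CPM. Microglia led for Abca1, Lrp1, Lpl and Plin2, each with a range above that of every other class ranked. In the other 5 classes Lpl reached at most 4.64 CPM and Plin2 at most 19.6 CPM. Oligodendrocyte-like nuclei led for Vldlr at 83.0 to 92.0 CPM, above OPC-like nuclei at 45.04 to 51.9 CPM. They also had the highest mean of Abcg1 at 87.1 to 130 CPM, which overlapped with microglia. Fabp5 was highest in astrocyte- and oligodendrocyte-like nuclei, at 19.1 to 41.5 and 21.7 to 37.9 CPM.

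**Figure D3:**
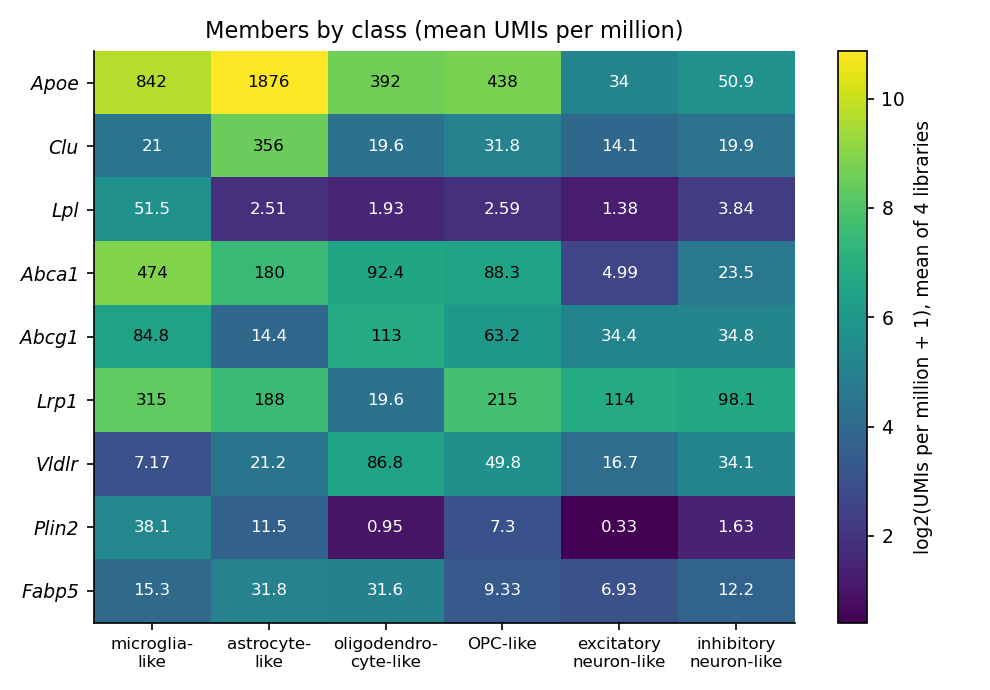
Mean level of the 9 members in 6 classes in CPM, printed in each cell and coloured on a log2 scale, over 4 libraries. Astrocyte-like nuclei led for Apoe and Clu, microglia-like nuclei for Lpl, Abca1, Lrp1 and Plin2, and oligodendrocyte-like nuclei for Abcg1 and Vldlr.

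The 5 classes outside microglia were compared between 3 and 6 months with edgeR's quasi-likelihood test over all genes, and the question was whether the members differ with age there too. DESeq2 called Abca1 in oligodendrocyte-like and Apoe in excitatory neuron-like nuclei, where it called 119 of 11243 and 75 of 17947 genes in all. In edgeR no member passed a Benjamini-Hochberg adjusted p of 0.05 in any of these classes. At an unadjusted p under 0.05 there was 1 of 5 members tested in astrocyte-like, 2 of 7 in oligodendrocyte-like and 0 of 8 in OPC-like nuclei. There were 3 of 8 in excitatory and 2 of 9 in inhibitory neuron-like nuclei. Over all genes it was 272 of 5554, 1173 of 12723, 578 of 11768, 1034 of 17947 and 891 of 16133 in the same order. With so few members, nothing is read from these counts. Few genes of any kind passed, and p-values measure the spread between these mice, 2 at each age. The share called was 0% in astrocyte-like, 0.0314% in oligodendrocyte-like, 0% in OPC-like, 0.0111% in excitatory neuron-like and 0% in inhibitory neuron-like nuclei. In the 3 classes with no call, edgeR gave 272, 578 and 891 genes at an unadjusted p under 0.05, and DESeq2 called 0, 2 and 20 genes.

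Abca1, the exporter that lipidates apolipoproteins, had log2 estimates of 0.93 to 1.09 in 4 of the 5 classes and of 0.14 in OPC-like nuclei. In oligodendrocyte-like nuclei it was at 61.7, 58.7, 131 and 118 CPM, so that both 6-month libraries were above both 3-month libraries. Its log2 fold change was 1.01 (standard error 0.188, with edgeR an adjusted p = 0.156 after Benjamini-Hochberg adjustment). With the replicate number as a block it was 1.01 with an adjusted p of 0.0148 in edgeR, in a fit that called 2.34% of genes. What same-numbered libraries shared was not stated, so the block is an alternative only. DESeq2 without the block gave an adjusted p of 0.0424. Over all alternatives the log2 estimate of Abca1 ranged from 0.76 to 1.10. Fits without 1 library leave 1 mouse at 1 age, so no call is read from them.

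The level of Abca1 was 126, 119, 201 and 275 CPM in astrocyte-like nuclei, with a log2 fold change of 0.93 (standard error 0.306, edgeR adjusted p = 0.840). In excitatory neuron-like nuclei it was 2.79, 3.56, 7.75 and 5.85 CPM, with a log2 fold change of 1.09 (standard error 0.272, edgeR adjusted p = 0.371). Inhibitory neuron-like nuclei had 12.8, 19.1, 34.4 and 27.8 CPM, with a log2 fold change of 0.95 (standard error 0.220, edgeR adjusted p = 0.701). The ages did not overlap in these 3 classes. In OPC-like nuclei Abca1 was at 79.4, 90.4, 93.4 and 90.1 CPM and the ages overlapped. With doublets left out the excitatory estimate was 0.64. The excitatory class pools several clusters. A cluster with Tshz2 and Slc17a6 among its leading genes held 243, 319, 49 and 110 of its nuclei. The class had 2176, 3237, 2261 and 2329 nuclei in all. The part of this make-up in the age differences was not tested.

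Apoe outside microglia depended on which 3-month library was used. In oligodendrocyte-like nuclei it was at 147, 422, 493 and 505 CPM, where 3M-1 stood below the other libraries. The estimate was 0.79 on the log2 scale (standard error 0.388, edgeR adjusted p = 0.615), 1.67 without 3M-2 and 0.25 without 3M-1. It was 0.49 with doublets left out and 0.50 with classes from a marker gate per nucleus. In astrocyte-like nuclei it was 0.42 (standard error 0.422, edgeR adjusted p = 0.975), 1.499 without 3M-2 and −0.18 without 3M-1. In OPC-like nuclei the levels were 274, 684, 419 and 376 CPM and the log2 fold change was −0.24, which became 0.54 without 3M-2. 3M-1 had the lowest Apoe level of the 4 libraries in astrocyte-like, oligodendrocyte-like, OPC-like, both neuron-like and microglia-like nuclei.

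In neurons the Apoe level was low and higher at 6 months, at 21.1, 27.4, 43.7 and 43.9 CPM in excitatory and 26.7, 45.7, 69.4 and 61.8 CPM in inhibitory neuron-like nuclei. In edgeR the log2 estimates were 0.84 (standard error 0.169, adjusted p = 0.217) and 0.85 (standard error 0.227, adjusted p = 0.790). DESeq2 gave 0.0312 for the excitatory class. The replicate block gave 0.88 and an adjusted p of 0.0482 in edgeR for the inhibitory class, in a fit that called 0.31% of genes. Over all alternatives the log2 estimate of Apoe ranged from 0.66 to 0.99 in excitatory and from 0.46 to 1.24 in inhibitory neuron-like nuclei. That of Abca1 ranged from 0.64 to 1.25 and from 0.72 to 1.22 in the same order. Fits without 1 library leave 1 mouse at 1 age, so no call is read from them. With doublets left out the inhibitory estimate for Apoe was 0.46.

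Microglial markers moved with the age in the same classes. The 20 genes of the microglial list summed to 87.5, 135, 208 and 170 CPM in excitatory neuron-like nuclei, where 19 of the 20 were higher in both 6-month libraries. They summed to 155, 252, 381 and 320 CPM in inhibitory neuron-like nuclei (18 of 20), to 147, 158, 223 and 230 CPM in oligodendrocyte-like nuclei (15 of 20), to 283, 367, 477 and 595 CPM in OPC-like nuclei (13 of 20) and to 137, 401, 412 and 737 CPM in astrocyte-like nuclei (8 of 20). No gene of the list was at 0 in all 4 libraries of any of these classes. Scaled by that list, microglial RNA would hold 0.734, 2.73, 18.2 and 11.5 CPM of Apoe and 1.51, 3.09, 6.30 and 5.02 CPM of Abca1 in excitatory neuron-like nuclei. The measured Abca1 levels there were 2.79 to 7.75 CPM. In oligodendrocyte-like nuclei the same scaling would hold 2.53, 3.63, 6.74 and 6.78 CPM of Abca1, where 58.7 to 131 CPM were measured. Astrocytic RNA scaled by the astrocyte list would hold 24.2, 111, 94.9 and 94.3 CPM of Apoe in excitatory neuron-like nuclei, above each measured level. It would hold 43.5% to 112% of the measured Apoe in inhibitory neuron-like and 53.5% to 111% in OPC-like nuclei. In oligodendrocyte-like nuclei it would hold 7.29% to 10.1%. The astrocyte list summed to 617, 720, 824 and 727 CPM in excitatory neuron-like nuclei. Slc1a3, 1 of its genes, was at 1.68 to 4.21 CPM there and at 1480 to 2155 CPM in astrocyte-like nuclei. For Clu the same scaling would hold 149% to 302% of the measured level in OPC-like nuclei. Values scaled by the astrocyte list are therefore not a measure of astrocytic RNA in neuron-like and OPC-like nuclei. What part microglial or astrocytic RNA has in these levels and age differences was not tested.

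**Figure D4:**
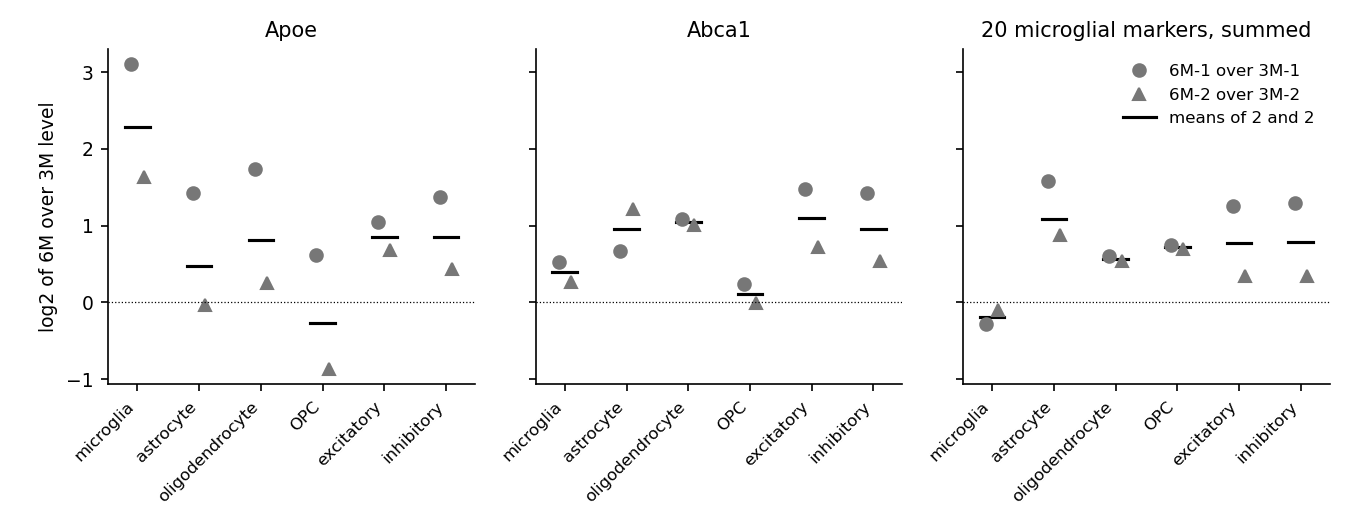
Log2 ratio of the 6-month to the 3-month level of Apoe, of Abca1 and of the summed 20 microglial markers in 6 classes, with circles for batch 1, triangles for batch 2 and bars for the ratio of the means of 2 libraries. The ratio of the means of Apoe was 2.29 in microglia, where Apoe was picked for its rise, and at most 0.86 in the other classes. Single batches differed from the means. In oligodendrocyte-like nuclei Apoe went from 147 to 493 CPM in batch 1 and from 422 to 505 CPM in batch 2. The microglial markers were higher at 6 months in all classes outside microglia.

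None of the other members passed either. Clu in oligodendrocyte-like nuclei was at 13.6, 15.9, 26.4 and 22.6 CPM, with a log2 fold change of 0.70 (standard error 0.267, edgeR adjusted p = 0.469). Lpl in excitatory neuron-like nuclei was at 1.48, 2.14, 1.04 and 0.858 CPM, with a log2 fold change of −0.94 (standard error 0.364, edgeR adjusted p = 0.775). Vldlr, in the classes that had it most, had log2 fold changes of −0.08 in oligodendrocyte-like (standard error 0.178) and −0.08 in OPC-like nuclei (standard error 0.222). The median log2 fold change of the members tested was 0.34 for 5 in astrocyte-like, 0.23 for 7 in oligodendrocyte-like and −0.12 for 8 in OPC-like nuclei. It was 0.016 for 8 in excitatory and 0.0054 for 9 in inhibitory neuron-like nuclei, and the median of all genes lay between −0.0048 and 0.0029 in the 5 classes. Among members with at least 20 UMIs, 2 of 6 in astrocyte-like, 3 of 8 in oligodendrocyte-like and 2 of 8 in OPC-like nuclei were higher in both 6-month libraries, against 19.2%, 22.1% and 16.8% of genes. In excitatory neuron-like nuclei 3 of 9 and in inhibitory neuron-like nuclei 2 of 9 were higher, against 19.4% and 20.4%. Lower in both 6-month libraries were 0, 0, 1, 2 and 1 members in the same order of classes, against 14.8%, 16.3%, 17.4%, 15.9% and 16.1%. With so few members, nothing is read from these counts. Of the 86 other genes on the lipid list, 27, 61, 56, 74 and 68 were tested in these classes and edgeR called 0 in each, with 0, 6, 3, 7 and 4 at an unadjusted p under 0.05. DESeq2 called 0 of 27, 2 of 57, 0 of 6, 1 of 74 and 1 of 68 with an adjusted p. Over all genes it called 0 of 5554, 119 of 11243, 2 of 2870, 75 of 17947 and 20 of 16133. The median log2 fold changes of these other lipid genes in edgeR were 0.10, 0.055, −0.035, 0.019 and 0.070.

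Whether a member's age difference differed among the 5 classes was asked with an interaction term in edgeR. No member passed, with an adjusted p of 0.190 for Abca1, 0.315 for Apoe and 0.462 for Clu after Benjamini-Hochberg adjustment, and the test called 1.2% of genes. At an unadjusted p under 0.05 there were 3 of the 9 members, against 1581 of 16157 genes. DESeq2 called 0 of 7 members with an adjusted p, with 0.196 for Abca1 and 0.331 for Apoe, against 386 of 12711 genes. Fits without 1 library leave 1 mouse at 1 age, so no call of Apoe is read from them. Of the 86 other genes on the lipid list, 75 were tested in edgeR and 1 passed, Pparg, which encodes a nuclear receptor for fatty acids (adjusted p = 0.0387). DESeq2 called 3 of the 63 with an adjusted p, Cpt1a, Mgll and Pparg. The level of Pparg was 17.3, 20.7, 5.04 and 4.65 CPM in oligodendrocyte-like nuclei and 60.1, 63.2, 54.2 and 61.6 CPM in inhibitory neuron-like nuclei. Pparg did not pass in the fits without 6M-1 or without 6M-2, which leave 1 mouse at 6 months.

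Microglia were next divided by genes that are not members. Disease-associated microglia (DAM) take up lipid and debris near damage, and a nucleus thinned to 1000 UMIs was DAM-gated with at least 2 of 19 detected DAM genes, such as Itgax and Cst7. Interferon-responsive microglia (IRM) were gated likewise with 17 genes such as Ifit3 and Rsad2, among nuclei below the DAM gate. A nucleus past both gates counted as DAM-gated, and the rest were below both gates. The IRM genes summed to 1103, 1409, 1224 and 972 CPM in DAM-gated and to 101, 185, 414 and 312 CPM in below-gate nuclei. Their part in the differences across the DAM gate was not tested. DAM-gated nuclei numbered 90, 51, 162 and 135, or 20.9%, 18.3%, 24.4% and 24.5% of the microglia deep enough, and below-gate nuclei numbered 322, 205, 426 and 379. At the threshold, 217 nuclei had 2 DAM genes and 448 had 1. The homeostatic list of 10 genes summed to 3158 to 3941 CPM in DAM-gated and to 4832 to 6306 CPM in below-gate nuclei. The median depth was 1857 to 2682.5 UMIs in DAM-gated and 1565 to 2212 UMIs in below-gate nuclei, and its part in the differences was not tested.

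Of the 7 members tested, 4 were higher in DAM-gated than in below-gate microglia of the same library (edgeR with the library as a block), where 11.1% of genes were called, 6.27% higher and 4.86% lower. DESeq2 called 2 of the 7, Apoe and Lpl, against 376 of 7703 genes in all. Clu and Vldlr had too few UMIs to be tested. Lpl and Fabp5 passed the filter on low counts only through the DAM-gated nuclei, so nothing is read from the count of members called.

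Lpl, the lipase that frees fatty acids from lipoproteins, had the largest difference. It was at 128, 114, 182 and 222 CPM in DAM-gated and at 4.11, 29.0, 20.9 and 11.5 CPM in below-gate nuclei, from 30, 12, 61 and 68 against 3, 10, 16 and 9 UMIs. Every DAM-gated level was above every below-gate level. The DAM-gated excess was 3.503 on the log2 scale (standard error 0.267, edgeR with Benjamini-Hochberg adjusted p = 4.17e-14), and it passed in all 14 alternatives, at 2.74 to 3.93. Because Lpl entered the test only through the nuclei where it was high, its p-value is given as a description. The alternatives include a fit with no filter on low counts. Of the thinned DAM-gated nuclei 8.89%, 11.8%, 9.88% and 13.3% had an Lpl UMI, against 0.621%, 1.95%, 2.11% and 0.792% below the gate.

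Apoe was at 235, 752, 2034 and 1706 CPM in DAM-gated nuclei and at 153, 223, 1311 and 997 CPM below the gate. It was higher in the DAM-gated nuclei of 4 of 4 libraries, while the 3-month DAM-gated levels stayed below the 6-month below-gate levels. The log2 fold change was 0.84 (standard error 0.116, edgeR adjusted p = 4.68e-07). Without the library as a block it was 0.82 with an adjusted p of 0.507. The ratio between the ages was present on both sides of the gate, at 2.62 on the log2 scale below it and 1.92 among DAM-gated nuclei. The 18 astrocyte markers summed to 338, 333, 649 and 617 CPM in DAM-gated and to 527, 388, 757 and 675 CPM in below-gate nuclei, lower in the DAM-gated nuclei of each library. Other lists were higher there. The 10 endothelial markers summed to 81.3, 66.6, 155 and 173 CPM in DAM-gated and to 46.6, 63.8, 48.4 and 46.1 CPM in below-gate nuclei, and 7 of the 10 were at 0 in the DAM-gated nuclei. The 6 macrophage markers summed to 21.4, 0, 29.8 and 42.4 CPM in DAM-gated and to 16.4, 11.6, 10.5 and 11.5 CPM in below-gate nuclei, with 3 of the 6 at 0 in each. The part of these cells in the Apoe difference was not tested.

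Plin2, the droplet coat protein, was at 77.0, 47.6, 56.6 and 68.5 CPM in DAM-gated and at 31.5, 20.3, 27.4 and 34.6 CPM in below-gate nuclei, again without overlap. The log2 fold change was 1.10 (standard error 0.267, edgeR adjusted p = 0.00304), and DESeq2 gave 0.108. Lrp1 was at 428, 428, 393 and 300 CPM in DAM-gated and 340, 310, 276 and 261 CPM in below-gate nuclei, higher in 4 of 4 libraries. Its log2 fold change of 0.36 (standard error 0.118, edgeR adjusted p = 0.0406) lost the call in 10 of 14 alternatives. Without the library as a block its edgeR adjusted p was 0.242. With the block it was 0.0915 without 3M-1, 0.0870 without 3M-2, 0.215 without 6M-1 and 0.0878 without 6M-2. The gene Gm16217 overlaps Lrp1 on the opposite strand.

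Fabp5 was at 21.4, 9.52, 29.8 and 35.9 CPM in DAM-gated and 4.11, 11.6, 13.1 and 12.8 CPM in below-gate nuclei, with a log2 fold change of 1.33 (standard error 0.492, edgeR adjusted p = 0.0750). Only 1 to 11 UMIs per library stood behind the DAM-gated values, and without 3M-2 the edgeR adjusted p was 0.0427. Like Lpl, Fabp5 entered the test only through the nuclei where it was high, so its p-values are given as a description. Neither exporter passed. Abca1 had a log2 fold change of −0.12 (standard error 0.115, edgeR adjusted p = 0.650) and Abcg1 of 0.32 (standard error 0.202, edgeR adjusted p = 0.391). Abca1 was higher in the DAM-gated nuclei of 2 of 4 libraries.

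**Figure D5:**
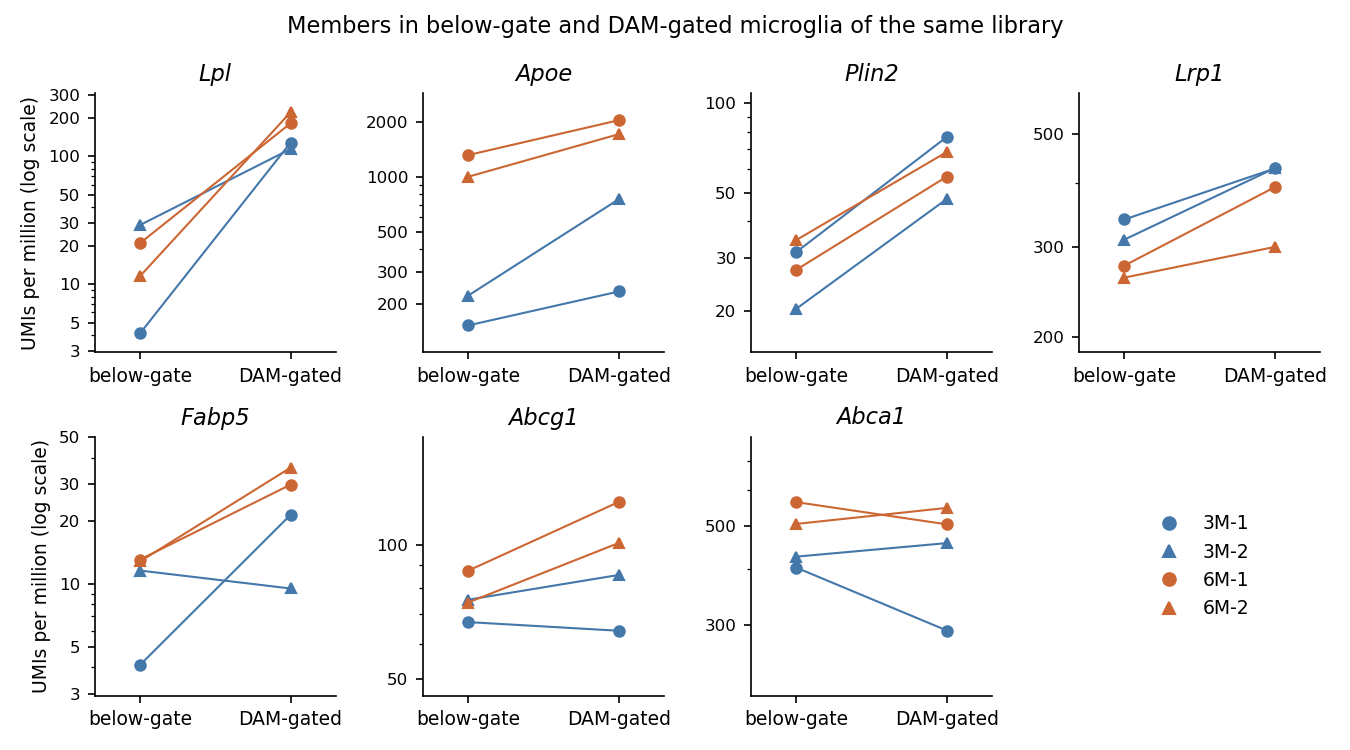
Levels of 7 members in CPM (log scale) in below-gate and DAM-gated microglia, with lines joining the classes of 1 library, blue for 3 months and orange for 6 months. All 4 lines rise for Lpl, Apoe, Plin2 and Lrp1, while those of Abca1 go both ways.

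The 86 other genes of the lipid list did not move one way across the DAM gate. Of 37 tested, 6 were higher and 5 lower, against 6.27% and 4.86% of all genes. DESeq2 called 2 of the 37, Abca9 and Lrp12, against 376 of 7703 genes in all. The median log2 fold change of the 37 was −0.18, and that of all genes was 0.0029. Lrp12, a receptor of the LDL receptor family, was higher by 1.43 (standard error 0.210, edgeR adjusted p = 1.55e-06). Abca9, an ABC transporter, had −0.99 (standard error 0.126, edgeR adjusted p = 5.41e-08). Sort1, a sorting receptor, had −0.67 (edgeR adjusted p = 0.00113, and 0.0925 in DESeq2). Mgll, the lipase of monoglycerides, had −0.75 (edgeR adjusted p = 0.00375, 0.0890 without the library as a block, and 0.123 in DESeq2). By group, 1 of 6 ABC transporters tested was higher and 2 were lower. Of 10 receptors 1 was higher and 2 were lower, of 7 regulators 2 were higher, and of 5 lipases and remodelling enzymes 1 was higher and 1 was lower.

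IRM-gated nuclei were fewer, at 19, 22, 75 and 36. Apoe was at 293, 873, 1900 and 1029 CPM there, from 12, 38, 267 and 73 UMIs. It was higher than below the gate in 4 of 4 libraries, by 0.93, 1.97, 0.54 and 0.045 on the log2 scale. In 6M-2 there was thus almost no difference. The log2 fold change was 0.63 (standard error 0.152, edgeR adjusted p = 0.00266), where 1.87% of genes were called, 1.52% higher and 0.354% lower. Without 3M-2 the adjusted p was 0.826, and DESeq2 gave 0.105. In 3M-2 the astrocyte markers summed to 2045 CPM in IRM-gated and 388 CPM in below-gate nuclei, and their part in the Apoe level was not tested. The call was also lost without the library as a block, where the log2 fold change was 0.71 with an adjusted p of 0.785 in edgeR. Of 5 members tested Apoe was the 1 called, and of 32 other lipid genes edgeR and DESeq2 each called 0. Over all genes DESeq2 called 95 of 6789. In edgeR 5 of the 32 had an unadjusted p under 0.05, against 573 of 6789 genes. Abcg1 was at 268, 161, 107 and 98.7 CPM from 7 to 15 UMIs (log2 fold change 0.82, edgeR adjusted p = 0.294) and Abca1 at 634, 552, 626 and 663 CPM (0.31, edgeR adjusted p = 0.614).

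Genes whose levels were most like those of Apoe were ranked by Pearson correlation of log2(CPM + 1) over 32 sums, 8 classes in each of 4 libraries, among 7521 genes with a mean of at least 50 CPM in some class. The sums of 1 library share their mouse and preparation, so the values are a description. Slc1a3 came first with 0.90, followed by Son, a splicing factor (0.89), Mt1, a metallothionein (0.87), Cd81, a tetraspanin (0.87), and Il18, a cytokine (0.86). Of the members Abca1 was most like Apoe with 0.83, then Plin2 with 0.63. Clu (0.35), Lrp1 (0.32), Lpl (0.27) and Abcg1 (0.10) were less so, and Vldlr had −0.21.

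All 9 members were matched by identifier to GENCODE M21 on GRCm38, and all are protein-coding genes. Apoe spans 19696109 to 19699188 on chromosome 7 and Clu 65968483 to 65981547 on chromosome 14. Lpl spans 68880491 to 68907448 on chromosome 8, Abca1 53030787 to 53159895 on chromosome 4, and Abcg1 31057675 to 31117988 on chromosome 17. Lrp1 spans 127538161 to 127621148 on chromosome 10 and Vldlr 27216484 to 27254231 on chromosome 19. Plin2 spans 86648386 to 86670060 on chromosome 4 and Fabp5 10012548 to 10016607 on chromosome 3.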

How the data were processed

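Deposited single-nucleus data came from the cortex of 4 GCLC-KO mice. The authors made matrices of raw UMI counts per gene and nucleus with Cell Ranger 7.0.0, as the file headers state, from DAPI-sorted nuclei and a 10x Genomics 3′ kit, and the submitters' processing notes name the build mm10. The annotation version was not given in the sources used here. Members and lists were chosen with earlier results of these data known.

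Nuclei with over 7000 detected genes or over 1% mitochondrial UMIs were left out, as the authors did. The rest were clustered with Seurat 5.3.0 (SCTransform, 3000 features without lipid and gate genes, 30 principal components, canonical correlation integration, resolution 0.2). A cluster was named from at least 3 markers among its 50 leading genes. Microglia-like nuclei were clustered again at 0.5, and subclusters with over 4 times the median and over 200 CPM of St18, Rbfox3, Mrc1 or T cell genes were left out. Scrublet (scanpy 1.11.5) called 3.88% to 8.78% of nuclei per library doublets, among them 5 of the microglia kept, and a fit without them was tried.

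For each library and class UMIs were added up, since nuclei are not replicates, and tested with edgeR 4.0.16 (TMM, filterByExpr, quasi-likelihood, Benjamini-Hochberg adjustment over all genes tested, threshold 0.05). DESeq2 1.42.0 was an alternative. The age and gate tests, but not the interaction test, were tried on simulated counts. These were drawn at 1 common dispersion with no library effect besides depth, so they do not check the spread between these mice. Named genes were all members, up to 4 other lipid genes per test with the smallest adjusted p past the threshold, and the 5 genes most like Apoe. Pairing by batch follows the replicate numbers in the sample titles. Deviations of same-numbered libraries correlated at −0.144 to 0.0076 over the genes of a class. Counting error in genes with few UMIs weakens such a correlation, so what these libraries shared cannot be told from it.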

Additional observations from a re-analysis of the deposited data

Results flagged for a closer look

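Pparg, a nuclear receptor gene of the lipid list, had an age difference that differed among the 5 classes outside microglia (edgeR interaction test, Benjamini-Hochberg adjusted p = 0.0387). Its levels were 19.1, 44.3, 0 and 6.89 CPM in astrocyte-like nuclei, 14.2, 33.5, 25.2 and 18.5 CPM in OPC-like nuclei and 86.7, 89.2, 70.3 and 62.9 CPM in excitatory neuron-like nuclei. The adjusted p was 0.0540 with doublets left out and 0.632 with classes from a marker gate per nucleus.

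Among the subclusters left out of microglia, the one rich in Mrc1, a marker of macrophages at brain borders, had 5976 CPM of Apoe in 6M-1 and 3711 CPM in 6M-2. It held 9 and 2 nuclei at 3 months and 11 in each library at 6 months, too few at 3 months for a sum. These Apoe levels were above those of microglia and of astrocyte-like nuclei in the same libraries.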

How the results depend on the processing

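Counts of genes called depended on the setting, and with 2 mice at each age a call can rest on 1 library. With no filter on low counts they were 60 in astrocyte-like, 548 in oligodendrocyte-like, 55 in OPC-like, 91 in excitatory and 12 in inhibitory neuron-like nuclei and 960 for the interaction. DESeq2 gave 119, 2, 75 and 20 in the last 4 of these classes, 386 for the interaction and 376 at the DAM gate. The replicate block gave 298, 5, 69 and 50 in these 4 classes, and the crossed pairing, added after the data were seen, 41 and 9 in the neurons. Without the library as a block the DAM gate gave 383 and the IRM gate 79. The replicate block changed the calls of Abca1 in oligodendrocyte-like and of Apoe in inhibitory neuron-like nuclei. At the gates, leaving out the library block changed those of Apoe at both, and of Lrp1 and Mgll at the DAM gate. Neither block changed another call of a gene compared here. Doublets left out gave 1 in astrocyte-like, 1 in OPC-like, 0 in excitatory neuron-like nuclei and 64 for the interaction. Classes from a marker gate per nucleus gave 12 in oligodendrocyte-like, 0 in excitatory and 3 in inhibitory neuron-like nuclei, 77 for the interaction and 552 at the DAM gate. With no subcluster left out of microglia the DAM gate gave 2144 and the IRM gate 776, and 1 gate gene in place of 2 gave 53 at the IRM gate.

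Leaving out 1 library gave 20 to 124 genes in astrocyte-like, 33 to 1325 in oligodendrocyte-like, 2 to 20 in OPC-like, 2 to 1735 in excitatory and 0 to 2459 in inhibitory neuron-like nuclei. Age fits without a library leave 1 mouse at 1 age, so these counts are not read. The highest came without 3M-2, or without 3M-1 in oligodendrocyte-like nuclei. It gave 1 (without 6M-1) to 878 (without 3M-1) for the interaction, 561 (without 3M-1, and 570 without 6M-2) to 793 at the DAM gate and 83 (without 3M-1) to 116 at the IRM gate. The log2 ratio of Apoe in microglia ranged from 1.85 to 2.91, and the share difference was 28.5 points at 500 UMIs per nucleus.

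Reversed were Apoe in astrocyte-like nuclei (−0.18 without 3M-1 to 1.499 without 3M-2) and in OPC-like nuclei (−0.76 without 3M-1 to 0.54 without 3M-2), and Abca1 across the DAM gate (0.43 with no subcluster left out). Abcg1 reversed across the DAM gate (−0.046 with 1 gate gene), and Plin2 across the IRM gate (−0.056 with no filter, −0.12 without 3M-2 to 0.51 without 6M-2, −0.17 with 3 gate genes, −0.50 without thinning). The causes were not tested. Over the results for single genes, leaving out a library kept 99 on their side of the threshold, took 7 below it, brought 15 past it and reversed 3, and the other alternatives gave 213, 23, 11 and 5. Depth limits Vldlr, Fabp5 and Clu in microglia.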

Other observations

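Apod, which encodes the lipocalin apolipoprotein D, was chosen after its values were seen. It was at 329, 434, 926 and 748 CPM in oligodendrocyte-like nuclei and at 7.75, 11.7, 37.8 and 68.2 CPM in OPC-like nuclei. In excitatory neuron-like nuclei it was at 2.99, 3.25, 11.7 and 12.6 CPM and in inhibitory neuron-like nuclei at 5.06, 6.15, 20.7 and 21.9 CPM. Both 6-month libraries were above both 3-month libraries in each of these classes. The log2 fold change was 1.10 in oligodendrocyte-like (edgeR with Benjamini-Hochberg adjusted p = 0.172) and 2.46 in OPC-like nuclei (adjusted p = 0.131), and edgeR called no class, while DESeq2 called Apod in oligodendrocyte-like and in both kinds of neuron-like nuclei. The oligodendrocyte list also summed to 161, 155, 307 and 328 CPM in excitatory neuron-like nuclei, and its part in the neuronal values was not tested.

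The clusters that stayed unnamed also held UMIs of the members. In the largest of them, with 2639 nuclei, Abca1 was at 3.06, 3.36, 12.1 and 13.3 CPM and Apoe at 17.0, 19.5, 41.4 and 38.6 CPM. In the cluster of 660 nuclei Abca1 was at 1.88, 1.36, 10.2 and 6.599 CPM. Clu was at 37.8, 13.2, 12.6 and 12.7 CPM in the cluster of 2360 nuclei, where 3M-1 stood above the others.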
